A study of Homo sapiens with 3 samples.

Results

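To examine occupancy by the PRCC-TFE3 fusion at the genes that recombine with *TFE3*, peaks inside or within 10 kb of 7 TFE3 fusion partner genes were collected from the deposited lists. The genes were *PRCC*, *SFPQ*, *NONO*, *ASPSCR1*, *CLTC*, *RBM10* and *MED15*, and their positions and all peak coordinates are in hg19, the build that the submitters' processing notes name. Membership depended on position alone. The windows held 67 of the 117702 regions that the ChIP libraries gave together. In replicate 1 they held 56 of 109205 narrowPeak peaks and 44 of 84248 BED peaks. In replicate 2 they held 64 of 81300 narrowPeak peaks and 46 of 63535 BED peaks. None of the 286 input DNA peaks lay in any of the 7 windows. The windows cover 440 kb of 3035 Mb, so the absence of so few peaks says little about background there.

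All 3 libraries came from HK-2, a widely used cell line derived from proximal tubule of human kidney, in which doxycycline switched on an HA-tagged PRCC-TFE3 fusion. Every sample, input DNA included, was exposed to 0.2 µg/mL doxycycline for 24 h. There were 2 HA-PRCC-TFE3 ChIP libraries (12235754 and 7418533 tags, a tag being a sequenced read placed in the genome) and 1 input DNA library (21695266 tags), and these totals were recovered from the lists. No library of uninduced cells or of cells lacking the HA tag was analysed here. Background was therefore known from input DNA alone, and signal that does not depend on the fusion could not be measured.

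TFE3 is a basic helix-loop-helix leucine zipper factor of the MiT/TFE family, which binds E-box elements and controls lysosomal and autophagy genes. In TFE3-rearranged renal cell carcinoma, the 5′ part of a partner gene is joined to the 3′ part of *TFE3*, so that the partner supplies the promoter and the amino terminus, and TFE3 supplies the DNA-binding domain. In the HK-2 model a doxycycline-dependent promoter stands in place of the *PRCC* promoter. Most of the partners act in the nucleus. PRCC is a proline-rich protein found with splicing factors, SFPQ and NONO are related RNA-binding proteins of paraspeckles, RBM10 regulates alternative splicing, and MED15 is a subunit of the Mediator coactivator complex. In contrast, ASPSCR1 is a tether of glucose transporter vesicles, and CLTC is the heavy chain of clathrin, which coats endocytic vesicles.

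The promoters of 4 members are shown, the 3 with a match to a searched motif and that of *PRCC*, the partner in the expressed fusion. RefSeq entries (build GRCh38.p14, 250 bases before to 50 bases after the gene start, on the strand of the gene) were found for 6 of the 7 genes, all but *SFPQ*. The motifs searched on both strands were the E-box CACGTG, its longer palindrome TCACGTGA and the CLEAR element of 10 bases, which both contain CACGTG. A second E-box, CATGTG, and the AP-1 element TGAGTCA were searched as well. Capitals mark the matches. The sequences of *ASPSCR1*, *CLTC* and *NONO* are the ones with a match, and that of *PRCC* held none of these motifs. Their positions, all on the plus strand of GRCh38.p14, are chr17:81977379-81977678 (*ASPSCR1*), chr17:59619645-59619944 (*CLTC*), chrX:71283385-71283684 (*NONO*) and chr1:156767285-156767584 (*PRCC*). The peaks are in another build and were not placed on these bases. *MED15* had entries with different starts, and all of them were searched. RefSeq starts may differ from the gene starts used for the peaks, so motif positions and summit positions are not on a common scale.
ASPSCR1: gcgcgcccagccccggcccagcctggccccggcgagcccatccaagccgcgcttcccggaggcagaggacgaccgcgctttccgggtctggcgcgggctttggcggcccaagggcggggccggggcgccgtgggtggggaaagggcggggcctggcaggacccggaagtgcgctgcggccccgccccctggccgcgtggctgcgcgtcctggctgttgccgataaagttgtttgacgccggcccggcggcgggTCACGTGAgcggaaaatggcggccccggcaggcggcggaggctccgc
CLTC: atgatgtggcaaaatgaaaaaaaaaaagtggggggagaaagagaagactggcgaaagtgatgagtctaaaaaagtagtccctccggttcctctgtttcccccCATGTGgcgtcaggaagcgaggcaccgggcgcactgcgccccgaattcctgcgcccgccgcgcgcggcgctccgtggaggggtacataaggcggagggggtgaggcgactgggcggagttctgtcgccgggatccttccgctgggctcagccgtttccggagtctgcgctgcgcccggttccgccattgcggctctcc
NONO: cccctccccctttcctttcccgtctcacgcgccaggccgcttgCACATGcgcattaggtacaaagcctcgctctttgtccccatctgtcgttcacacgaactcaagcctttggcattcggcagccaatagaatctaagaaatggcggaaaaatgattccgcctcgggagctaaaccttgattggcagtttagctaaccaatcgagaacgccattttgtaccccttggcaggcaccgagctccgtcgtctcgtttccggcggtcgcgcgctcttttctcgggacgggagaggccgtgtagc
PRCC: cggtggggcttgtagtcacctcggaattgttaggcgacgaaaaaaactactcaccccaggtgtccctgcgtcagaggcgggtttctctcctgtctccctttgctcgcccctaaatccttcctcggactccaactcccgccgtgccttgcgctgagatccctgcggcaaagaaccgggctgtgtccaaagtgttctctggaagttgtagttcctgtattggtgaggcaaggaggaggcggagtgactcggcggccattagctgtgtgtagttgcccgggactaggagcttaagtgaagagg

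The promoter of *ASPSCR1* held TCACGTGA, which begins at base 4 downstream of the start and is present in 0.980% of all 35116 RefSeq promoters. The CACGTG inside it is present in 7.26% of them. *CLTC* held CATGTG, from base -148, and *NONO* held its reverse complement, from base -207. In all promoters 11.1% held this motif on either strand. The CLEAR element (0.353% of all promoters) and TGAGTCA (4.95%) were found in none of the member promoters, and *MED15* and *RBM10* had no match to any motif in these windows. CpG dinucleotides ranged from 17 in *PRCC* to 41 in *ASPSCR1*, compared with a median of 14 in all promoters. Motifs inside the peaks were not analysed here, since they need a genome sequence of hg19.

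Next, the occupancy of the gene starts was examined. Peaks with 1 bp or more in common were joined into regions across the replicates, and a region with a narrowPeak peak of each replicate was called shared. A shared region had its mean summit within 1000 bp of the start of all 7 genes, while 5.06% of all 2000 bp bins of chromosomes 1 to 22 and X held a shared region. The bins cover the whole genome, deserts included, and the share among the starts of other genes was not analysed here. Counted from the start, with negative values upstream, summits lay between -240 bp (*PRCC*, replicate 2) and 378 bp (*NONO*, replicate 2), and the replicates placed them 5 to 67 bp apart. *NONO* was the member whose summit lay inside the gene in both replicates, at 353 and 378 bp. At *CLTC* and *RBM10* it lay upstream in replicate 1 (-58 and -47 bp) and just inside the gene in replicate 2 (9 and 4 bp), and at the other 4 genes it lay upstream in both. RefSeq places *HDGF* on the 5′ side of *PRCC* and *NDUFB11* on the 5′ side of *RBM10*. Whether these start regions belong to the members or to their neighbours was not tested.

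The strength of these sites was then compared. Fold enrichment is the ratio of signal to background at the summit as the authors' peak caller gave it. At the *PRCC* start (chr1:156736809-156737372) it was 28.3 in replicate 1 and 22.4 in replicate 2, higher than 98.4% and 96.5% of all peaks in those lists. At the *SFPQ* start (chr1:35658626-35659104) it was 19.6 and 17.7. The *NONO* start (chrX:70502754-70503603) had 18.2 and 19.9, and the *CLTC* start (chr17:57696468-57697353) had 16.6 and 21.2. Lower values were found at *RBM10* (chrX:47004031-47004809, 12.5 and 12.0), *ASPSCR1* (chr17:79934310-79934885, 12.5 and 11.9) and *MED15* (chr22:20861644-20861978, 11.8 and 11). The 3 genes of the last sentence thus lay below the other 4 in both replicates, and the lowest of the 7 was still above 75.7% and 75.1% of all peaks. The median of the 7 starts was 16.6 in replicate 1 and 17.7 in replicate 2. The other 40 shared regions of the windows had medians of 10.8 and 8.48, and ranged from 4.11 to 30.9 and from 4.35 to 25.2, so both sets overlapped widely.

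Tags in BED peaks, whose width is fixed at 208 bp in replicate 1 and 212 bp in replicate 2, gave levels that could be set against input DNA. The *PRCC* start held 61 tags in replicate 1, or 49.9 per 10000000 tags of the library (95% Poisson interval, 38.1 to 64.0), and 36 tags in replicate 2, or 48.5 (34 to 67.2). Input DNA had 0 tags in both windows, which allows up to 1.38 per 10000000. The ChIP values were 36.1 and 35.1 times this limit, a ratio that leaves out the counting error of the ChIP tags. The intervals cover counting error only, and the floor was 3 tags in the input library. Peaks were called against this same input library, so signal above input was a condition for being listed, and the ratios at all members describe its size and are no test of it. *SFPQ* had 34.3 (24.7 to 46.4) and 37.7 (25.1 to 54.5) per 10000000 tags, also with 0 input tags. These values were 24.8 and 27.3 times the same input limit. *NONO* had 27.8 (19.2 to 38.8) and 43.1 (29.5 to 60.9), with 1 input tag in each window.

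*CLTC* followed with 24.5 (16.5 to 35.0) and 44.5 (30.6 to 62.5) tags per 10000000, and its input tags numbered 2 in the replicate 1 window and 1 in the replicate 2 window. *MED15* had 23.7 (15.9 to 34) and 28.3 (17.5 to 43.3), and *RBM10* had 27.0 (18.6 to 37.9) and 24.3 (14.4 to 38.3), each with 1 input tag per window. *ASPSCR1* was lowest on the mean of both replicates, with 19.6 (12.6 to 29.2) and 25.6 (15.4 to 40) and 0 input tags. In this order each gene overlapped the next in its intervals. The replicate 1 interval of *PRCC* lay above those of *CLTC*, *MED15* and *ASPSCR1* and just above that of *RBM10*, whereas in replicate 2 the *PRCC* interval overlapped those of all other members. With 1 or 2 input tags a ratio to input is imprecise. For *NONO* it was 60.3 in replicate 1, with an exact interval from 10.1 to 2450.

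**Figure D1:**
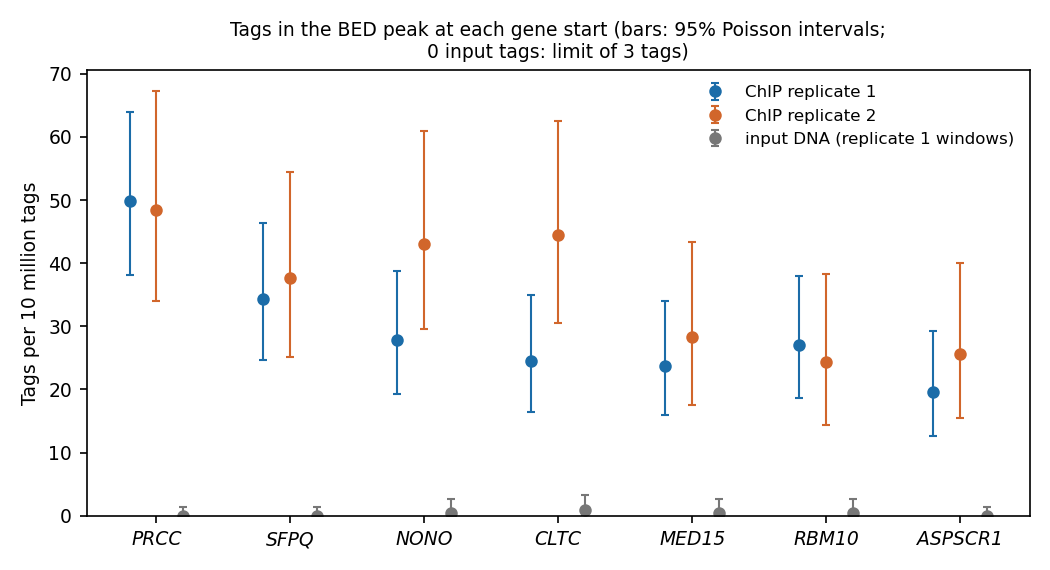
Tags per 10000000 tags of each library (y axis) in the BED peak at the start of each gene (x axis), for both ChIP replicates and for input DNA in the replicate 1 windows. Points are single libraries and bars are 95% Poisson intervals, or the limit of 3 tags where input had 0. The ChIP points lie between 19.6 and 49.9 and the input points between 0 and 0.922.

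To see how the rest of each locus was occupied, all 67 regions were placed by their distance from the gene start. A total of 47 regions (70.1%) were shared, compared with 59.8% of all regions in the series, and 40 (59.7%) had a peak in all 4 lists, compared with 46.2% of all regions. The other 20 regions comprised 8 found only in replicate 1 and 12 found only in replicate 2. These were weak. Their fold enrichments ranged from 4.79 to 7.95 in replicate 1 and from 3.85 to 6.42 in replicate 2, and none lay within 1000 bp of a gene start. Of the shared regions, 10 were within 1000 bp of a start, 28 were in the remaining gene bodies, 4 in the 5′ flanks and 5 in the 3′ flanks. Per 10 kb of sequence, this was 7.14 regions at the starts, 0.954 in the gene bodies, 0.635 in the 5′ flanks and 0.714 in the 3′ flanks. *PRCC*, *ASPSCR1* and *MED15* had a second, weaker shared region within 1000 bp of the start, which had no BED peak.

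**Figure D2:**
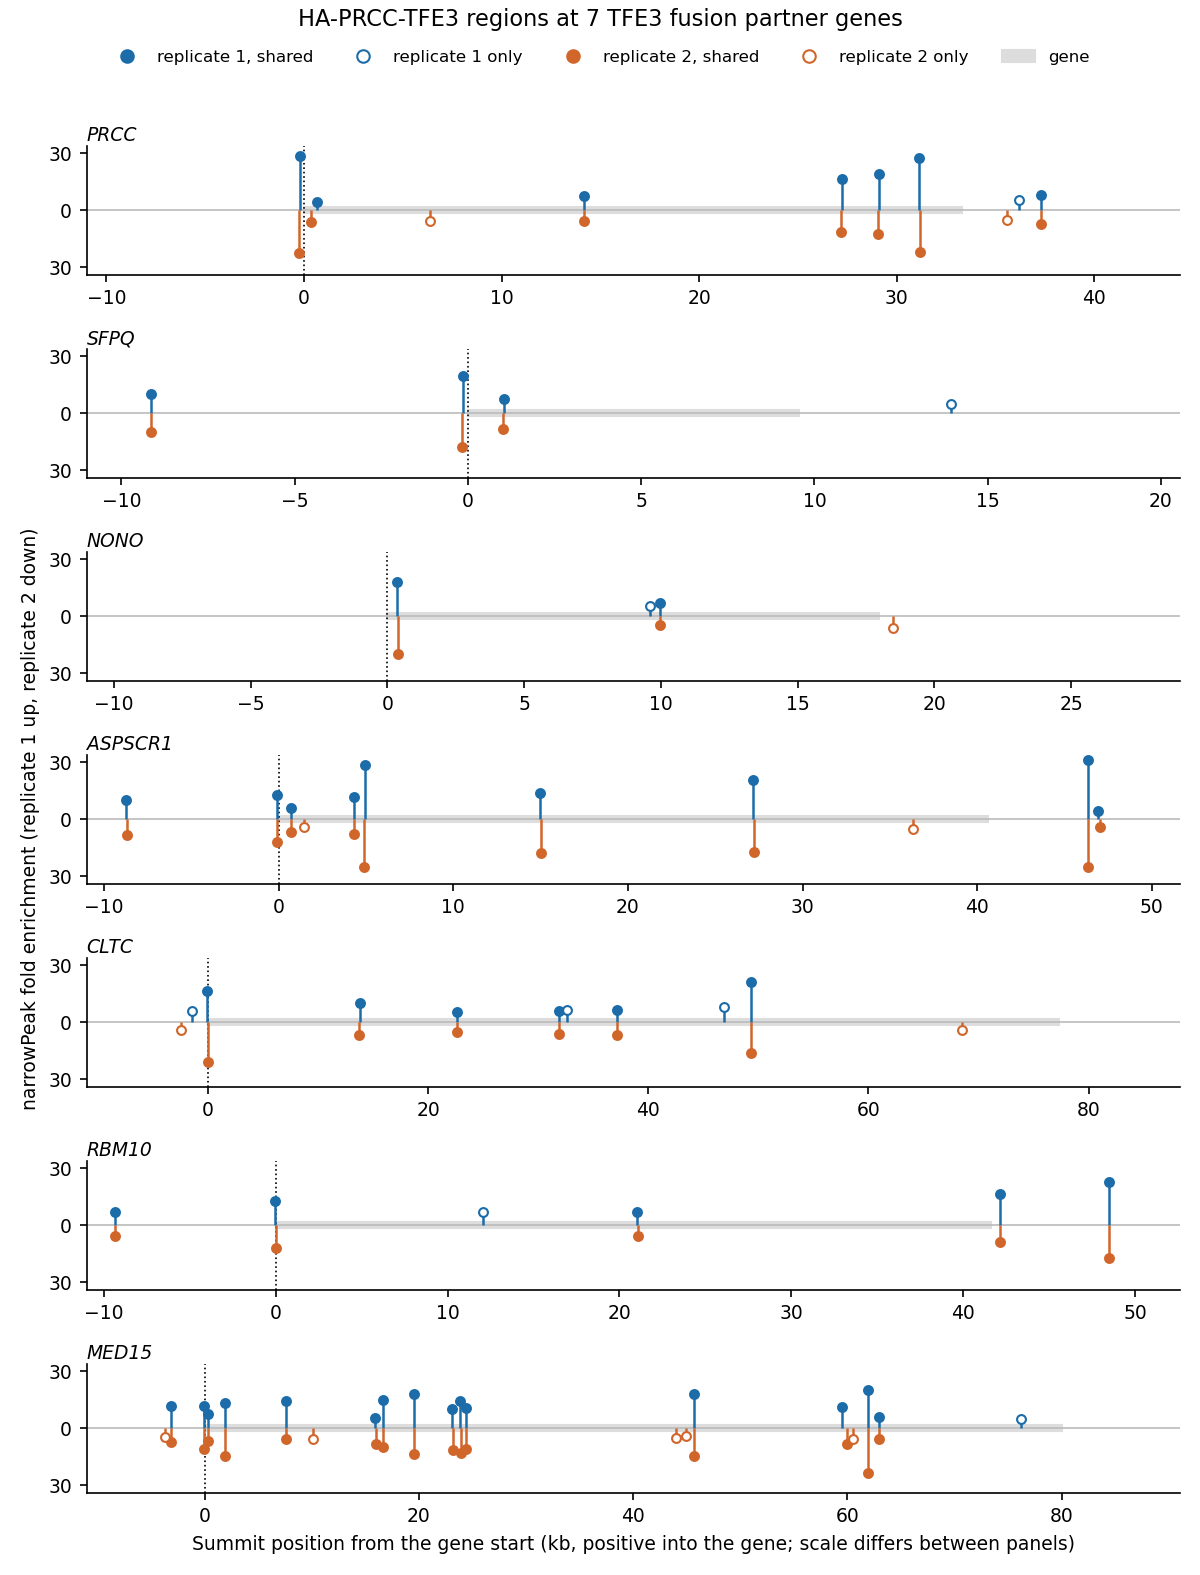
Position of each region at the 7 genes, as the summit of its strongest narrowPeak peak in kb from the gene start (x axis), against fold enrichment (y axis, replicate 1 upward and replicate 2 downward). Grey bars are genes, filled points are shared regions and open points are regions of 1 replicate. All 7 starts carry a filled point, and open points stay below 8-fold.

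The nuclear partners that bind RNA or are found with splicing factors came first. *PRCC* had 7 shared regions in 53.3 kb. Besides its start, 3 of them formed a group near the 3′ end of the gene, within 3946 bp of each other (chr1:156764188-156768673). Their fold enrichments in replicate 1 were 16.6, 19.1 and 27.3, and in replicate 2 they were 11.6, 12.7 and 21.8, in the same order along the gene. The last of them, 31132 and 31166 bp from the start, came close to the *PRCC* start in fold enrichment, although it held fewer tags, 40 and 27. Fold over the local background, the density of tags around a peak, was 8.30 and 8.90 there, and 21.0 and 19.1 at the start. The inducible fusion gene of these cells also contains sequence of the 5′ part of *PRCC*, and tags from it cannot be told apart from those of the *PRCC* exons it keeps. Which *PRCC* peaks overlap those exons was not analysed here, and the input averages that follow are no test of it. Input tags at *PRCC* peaks averaged 1 per BED peak in the replicate 1 list (exact Poisson interval, 0.402 to 2.06) and 1.25 in the replicate 2 list (0.599 to 2.30). All peaks on chromosome 1 averaged 1 and 0.990, within both intervals.

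*SFPQ*, the shortest gene at 9543 bp, had 3 shared regions. In addition to its start, one lay 1052 and 1024 bp into the gene (fold enrichments, 7.20 and 8.25) and one upstream of it, at -9149 and -9148 bp (10.1 and 10.2). The upstream site had 20 and 16 tags and 0 input tags. Its related partner *NONO* had 2 shared regions, the fewest of all members. The second *NONO* site, 9955 and 9966 bp into the gene, was weak in both replicates, with fold enrichments of 6.84 and 4.51. A site 518 bp beyond the end of *NONO*, toward *ITGB1BP2*, was present in replicate 2 alone, with 7 tags. *RBM10* had 5 shared regions. Its strongest was not at the start but 6894 bp beyond the 3′ end (chrX:47052660-47053327), on the side where *UBA1*, the main ubiquitin-activating enzyme, follows in RefSeq. Fold enrichments there were 22.5 and 17.3, compared with 12.5 and 12.0 at the *RBM10* start. A further site 563 bp beyond the gene had 16.6 and 8.98, and its tags were 32 in replicate 1 and 13 in replicate 2.

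*MED15*, the longest gene, had the most shared regions, 15 in 100.0 kb. Of these, 12 were in the gene body beyond the first 1000 bp. A group of 6 spanned 8428 bp, from 15998 to 24426 bp into the gene (chr22:20877733-20886484), another of 4 surrounded the start, and 3 lay between 59732 and 62942 bp. These positions are means of both replicates, and the first of the last 3 had its summits at 59520 and 59943 bp. The strongest *MED15* site belonged to the last group (chr22:20923249-20924289), with fold enrichments of 20.2 and 23.7, whereas its start had 11.8 and 11. Tags there numbered 38 and 36, with 0 input tags. In the group of 6, fold enrichments were between 5.35 and 18.2 in replicate 1 and between 8.42 and 13.5 in replicate 2. The site with the most unequal fold enrichments of all 47 was also in *MED15*, 7619 and 7589 bp into the gene, with 14.3 in replicate 1 and 5.73 in replicate 2.

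The vesicle partners differed in the number of their sites. *ASPSCR1* had 9 shared regions in 60.6 kb, and its start was not the strongest of them. A site 4967 and 4904 bp into the gene (chr17:79939340-79940299) had fold enrichments of 28.4 and 25, with 54 and 39 tags. Another pair of gene-body sites followed, with 14.0 and 17.9 at 14990 and 14994 bp, and with 20.6 and 17.5 at 27174 and 27232 bp. The highest values of all 67 regions were 30.9 and 25.2, at a site 5724 bp beyond the end of *ASPSCR1* (chr17:79980595-79981238), where *CENPX* and *LRRC45* follow in RefSeq. That site held 63 tags in replicate 1 and 43 in replicate 2, or 51.5 (39.6 to 65.9) and 58.0 (41.9 to 78.1) per 10000000, and 0 input tags. *CLTC* had 6 shared regions in 97.3 kb. Apart from its start, one was strong, at 49322 and 49317 bp into the gene (chr17:57746161-57747053), with 20.9 and 16.0, and the other 4 had fold enrichments of 5.35 to 10.1 in replicate 1 and 5.13 to 6.93 in replicate 2. The limit of 10 kb mattered here. The nearest shared region outside the *CLTC* window was 10351 bp from the gene (chr17:57784668-57785334), on the side where *PTRH2* follows in RefSeq. Its fold enrichments of 29.7 and 34.4 exceeded those of every region inside. The region farthest out among those counted, 9241 bp from *RBM10*, had 6.95 and 5.78.

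The number of shared regions was also set against the length of each window. The 7 windows, 440 kb in all, held 10.7 shared regions per 100 kb, while chromosomes 1 to 22 and X, deserts included, held 2.32. *MED15* (15.0), *ASPSCR1* (14.9) and *PRCC* (13.1) had the most per 100 kb, followed by *SFPQ* (10.2), *RBM10* (8.12), *CLTC* (6.17) and *NONO* (5.27). The order of the first 3 depended on the lists, since BED peaks matched between the replicates numbered 11 at *MED15*, 6 at *ASPSCR1* and 7 in the shorter window of *PRCC*. When the genome was cut into windows of the same length, 0.699% held as many shared regions as *MED15*, 1.48% as many as *ASPSCR1*, and 2.69% as many as *PRCC*. Among windows of their own chromosome the shares were higher, at 2.73%, 5.15% and 4.58%. For *NONO* the share was 22%, and among windows with at least 1 shared region it was 54.3%. The order of the members also changed within chromosomes. As many sites as *CLTC* were found in 13.2% of all windows but in 33.6% of those on chromosome 17, whereas for *NONO* the share was 10% on chromosome X, and for *RBM10* it was 9.19% of all windows and 2.02% on chromosome X. Input tags per peak, averaged over replicate 1 BED peaks, were 0.503 on chromosome X and 0.927 on chromosome 17, and their part in these densities was not tested.

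**Figure D3:**
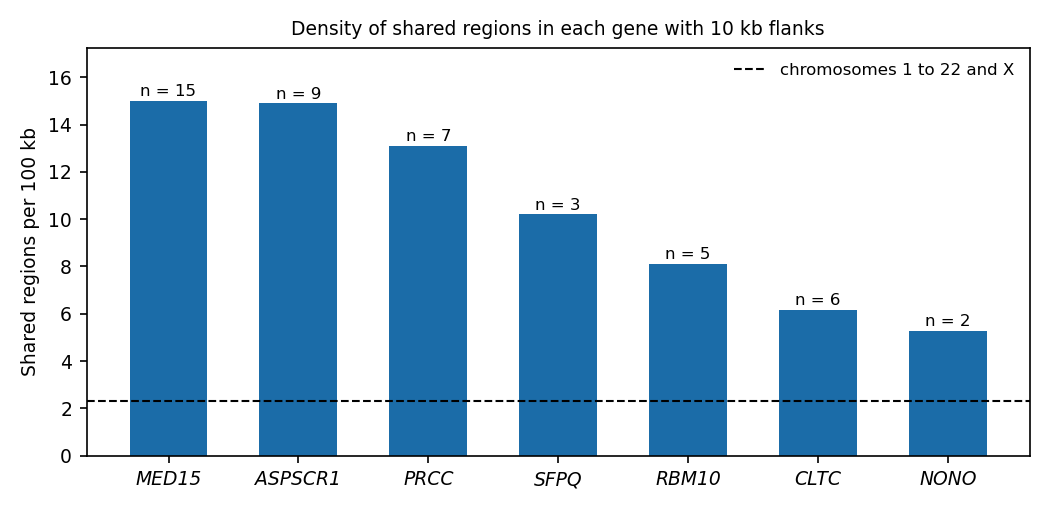
Shared regions per 100 kb (y axis) in each gene with 10 kb on either side (x axis), with the number of shared regions above each bar. Each bar is a single count over both replicates, without an error, and the dashed line is the density over chromosomes 1 to 22 and X, 2.32 per 100 kb. All 7 bars lie above the line, which covers gene deserts as well.

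Over all member peaks, the median fold enrichment was 10.3 in replicate 1 (56 peaks) and 7.60 in replicate 2 (64 peaks), compared with 7.49 and 7.32 for all peaks in those lists. Of the member peaks, 36 of 56 and 33 of 64 were above the median of their list. The difference was thus small in replicate 2. Fold over the local background, which the BED lists give, went the other way. Its median at member peaks was 11.4 and 11.6, compared with 12.8 and 14.8 over all BED peaks. In the *MED15* group of 6 it was between 4.43 and 11.2 in replicate 1, at the 5 regions with a BED peak, and at the 3 grouped *PRCC* sites it was between 6.57 and 8.30, all below the median of the list. The 7 starts had higher medians of this fold, 18.8 and 19.1, with lowest values of 5.95 and 8.35. *RBM10* was the highest start by this fold in replicate 1 (32.4) and *NONO* in replicate 2 (51.0), while *PRCC* had 21.0 and 19.1. Input tags were sparse at the members, with means of 0.864 per BED peak in the replicate 1 list (exact Poisson interval, 0.611 to 1.19) and 0.957 in the replicate 2 list (0.695 to 1.28), compared with 0.874 and 0.876 over all peaks. No member peak had more than 3 input tags.

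Finally, the replicates were compared at the members. Fold enrichment was higher in replicate 1 at 32 shared regions and higher in replicate 2 at 15, and the median ratio of the higher to the lower value was 1.2. A total of 40 BED peaks were matched between the replicates, with 1147 tags in replicate 1 and 800 in replicate 2. Replicate 2 thus gave 41.1% of these tags (95% Wilson interval, 38.9% to 43.3%), while it gave 39.8% over all 55655 matched peaks. By gene, its share ranged from 36.7% at *RBM10* (30.4% to 43.5%) to 45.0% at *CLTC* (38.5% to 51.8%), and each of the 7 intervals included 39.8%. The tag split at single peaks was tested with a two-sided exact binomial test in SciPy, adjusted over all matched peaks. By this exact test none of the 40 member peaks passed the threshold (lowest unadjusted p = 0.0528 at the *CLTC* start, lowest adjusted p = 1), and 0 had an unadjusted p below 0.05. Over all 55655 matched peaks, 0% passed the adjusted threshold and 1227 peaks, a share below 0.05, had an unadjusted p below 0.05. No peak of the series passed, so the lack of passing member peaks says nothing particular about the members. Only BED peaks matched between the replicates could enter. The 20 regions found in a single replicate, where the libraries may differ most, were therefore not tested. Shared regions without a matched BED peak were not tested either. This test compares the 2 libraries and not conditions, and a difference smaller than these tag numbers can resolve would not be detected.

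**Figure D4:**
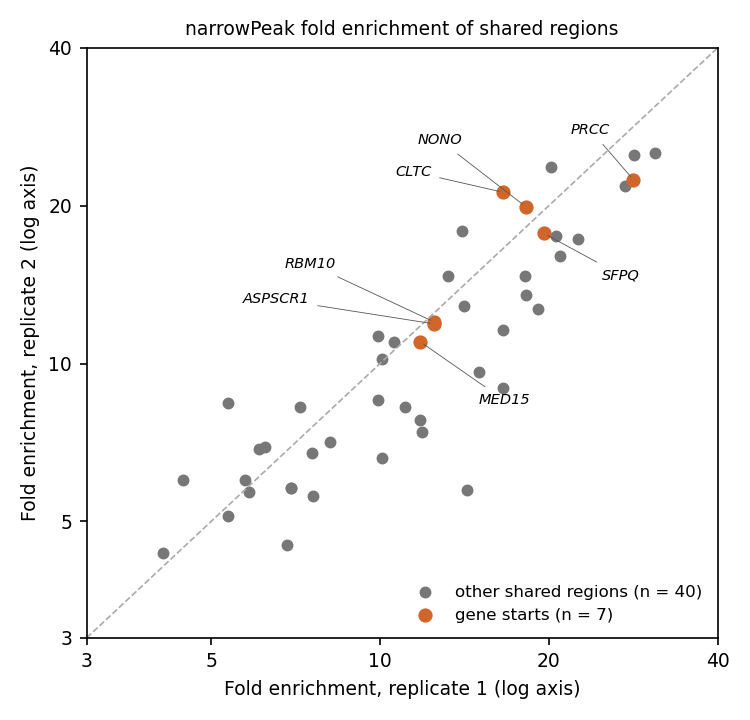
Fold enrichment of the 47 shared regions in replicate 1 (x axis) and replicate 2 (y axis), both on log axes, with the 7 gene starts in orange and the other 40 regions in grey. The dashed line marks equal values. By this measure the *PRCC* start, at 28.3 and 22.4, is the highest of the 7 starts, and the *RBM10*, *ASPSCR1* and *MED15* starts lie together between 11 and 12.5.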

How the data were processed

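Chromatin fragmented with micrococcal nuclease was precipitated through the HA tag. The authors called peaks per sample against input DNA (MACS, Strand NGS), and the aligner and the handling of duplicates are not given in the sources used here. The paper names a stringent p-value cutoff for its binding sites, and whether the lists used here were held to it was not checked. The deposited narrowPeak lists gave a fold ratio, −log10 p and q values, a score of 10 times −log10 q, and a summit, with lowest −log10 q values of 1.31 and 1.35. In the deposited BED lists the header names are displaced against a layout like that of HOMER findPeaks, so columns were read by position. These deposited lists gave a score, a tag count, a signal in tags per 10000000, scaled input signal, fold ratios, p-values and the fraction of tags near the peak centre, of which the p-values and the fraction were not used. The build was hg19 according to the submitters' processing notes.

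Library totals were obtained from tag counts and the scaled signal, and input tags per peak by dividing tags by their fold over input, where 100.00% of quotients were, within 5%, whole multiples of what a single tag is worth, or the fixed lower value that stands for no tag. Regions were merged in Python 3.11.15 with pandas 2.3.3, tests used SciPy 1.17.1, and p-values were adjusted by Benjamini-Hochberg in statsmodels 0.14.6. The split test and input recovery were tested on simulated data. Changed splits were planted only in peaks with many tags, so the simulation does not show what could be detected at members with few tags. Groups came from the sample titles. Each group value rests on 2 ChIP libraries, which the study describes as biological replicates, and 1 input library. At each gene, the region nearest the start within 1000 bp and the shared region whose smaller fold enrichment was highest were named, and other regions were described after their values were seen. A second list of partner genes set for hg19 annotation was not analysed here. The members and lists were chosen with earlier results of these data known. The reference genome at hand was GRCh38, so no sequence was read by peak coordinates and neighbouring genes were taken from RefSeq by name.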

Additional observations from a re-analysis of the deposited data

How the results depend on the processing

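Under the 28 alternatives computed, 23 values stayed close to those reported, 4 moved and 1 turned direction. Counts were allowed a factor of 1.5, and the other values were held to the spread between replicates or to a Poisson interval. The 47 shared regions became 28 at a q threshold of 1e-10, and ranged from 38 to 59 under the other lists, overlaps and flanks. All 7 starts kept a shared region with a limit of 500 bp or 2000 bp, in the BED lists and with q below 1e-05, and each replicate alone had a peak at all 7. The mean number of narrowPeak peaks was 60, and it was 56 to 64 when either replicate was left out. The median share of windows with fewer shared regions than a member was 91.4%. It was 94.8% within the same chromosome, 94.3% with the BED lists and 95.3% without flanks, and the cause was not tested. The same-chromosome median rose although most members stood out less there. *PRCC*, *SFPQ*, *ASPSCR1*, *CLTC* and *MED15* had a larger share of windows with as many regions, and only *NONO* and *RBM10* a smaller one. The median of member peaks was 1.21 times that of all peaks for the narrowPeak fold (1.04 to 1.38 with a single replicate) and 1.40 times for tags per 10000000. It was 0.843 times for the fold over the local background. No paired analysis was possible because only the ChIP labels, and not that of input DNA, are numbered. With 12235754 and 7418533 tags, a region found in 1 replicate alone cannot be taken as absent from the other.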
